A study of Mus musculus with 20 samples.

Results

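The keratins that mark the basal and the luminal layers of urothelium were followed through RNA-seq libraries of MB49, a mouse bladder cancer line of male origin. The group was 10 genes chosen by name, 6 basal (Krt5, Krt14, Krt15, Krt17, Krt6a and Krt6b) and 4 luminal (Krt7, Krt8, Krt18 and Krt19), out of 28076 genes listed in the tables. The tumor tables list 9 of the 10 and the cell line tables list 8. Krt6b was not analysed here, and Krt15 was measured in tumors only. There were 20 libraries in 4 groups of 5: Y-negative and Y-positive MB49 cells in culture (DMEM with fetal bovine serum), and subcutaneous tumors of Y-negative and Y-positive MB49 cells in male wild-type C57BL/6 mice. All 4 groups are untreated MB49 material, and the Y chromosome status of the cancer cells is the one genotype the labels give. The sources used here do not give how that status arose, whether a culture is a clone, the age of the mice or whether each tumor came from its own mouse. The p-values therefore reflect only how much these libraries vary, and that variation may be technical.

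Keratins are the intermediate filament proteins of epithelial cells, and each filament is built from pairs of an acidic type I and a basic type II protein. Basal cells of stratified epithelia make the Krt5 and Krt14 pair, simple and luminal epithelial cells make the Krt8 and Krt18 pair, and Krt6a with Krt17 is known from wounded and hyperproliferative epithelium. In bladder cancer the same genes serve as markers of basal-like and luminal-like tumors.

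The type II members Krt5 (chr15:101707070-101712898), Krt6a (chr15:101689910-101694307), Krt7 (chr15:101411043-101430313) and Krt8 (chr15:101996698-102004482) lie on chromosome 15 of mm10. The type I members Krt14 (chr11:100203162-100207548), Krt15 (chr11:100131758-100135928), Krt17 (chr11:100256217-100261029) and Krt19 (chr11:100140810-100148665) lie on chromosome 11. Krt18 (chr15:102028180-102032027) is a type I gene that sits on chromosome 15 beside its partner Krt8, and the pair is transcribed in opposite directions away from the stretch between them. RefSeq promoter windows of 300 bases (GRCm38.p6, 250 before and 50 after the annotated start) matched 5 of the 10 members by symbol. The parts upstream of both the RefSeq and the GENCODE M21 starts are shown for the most abundant pair, Krt8 and Krt18, and for Krt5, the partner of Krt14 whose RNA was nearly absent from the tumors. They read 5′ to 3′ on the gene's strand and lie at chr15:101712906-101713155 (minus strand, Krt5), chr15:102004483-102004592 (minus strand, Krt8) and chr15:102027966-102028179 (plus strand, Krt18), with matches to TATAAA or ATAAAA in capitals.
Krt5: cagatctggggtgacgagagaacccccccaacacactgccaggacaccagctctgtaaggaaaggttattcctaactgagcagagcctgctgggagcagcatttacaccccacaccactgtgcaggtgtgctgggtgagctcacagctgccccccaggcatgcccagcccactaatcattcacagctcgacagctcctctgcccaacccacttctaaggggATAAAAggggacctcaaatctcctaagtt
Krt8: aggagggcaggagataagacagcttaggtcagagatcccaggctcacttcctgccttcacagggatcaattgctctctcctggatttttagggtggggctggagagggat
Krt18: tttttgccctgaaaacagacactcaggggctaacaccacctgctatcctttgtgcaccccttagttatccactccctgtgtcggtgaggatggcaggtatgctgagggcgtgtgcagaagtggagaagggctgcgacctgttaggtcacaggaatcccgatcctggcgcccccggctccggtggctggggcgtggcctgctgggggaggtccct
The capitals show an ATAAAA in Krt5 that starts 29 bases before the RefSeq start, and no such match in the Krt8 or Krt18 stretch. The part of the Krt8 window downstream of its GENCODE start, not shown, does hold matches on either strand. These are TATAAA at 3 and 1 bases and ATAAAA at 4 bases before the RefSeq start. The shares that follow are over whole windows. Of all 32851 windows of the table, 18.5% hold ATAAAA on either strand and 13.6% hold TATAAA, with some windows holding both. The RefSeq start of Krt14 lies 1518 bases inside the span of its GENCODE coding transcripts, and its window is not shown.

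Library totals ran from 14557118 to 21180885 reads over the listed genes. The Y labels were checked first: Kdm5d and Uty, 2 Y-linked genes listed in the cell line tables, summed to 0 to 0.0521 CPM (reads per 1000000 reads of the library) in Y-negative cultures and to 12.6 to 100.2 CPM in Y-positive cultures. In tumors 4 Y-linked genes summed to 17.9 to 29.7 CPM (Y-negative) and to 135.0 to 234.3 CPM (Y-positive), and the male host carries these genes too. The Y-negative tumor libraries fell into 2 sets, MN11, MN13 and MN14 in the first and MN12 and MN15 in the second. The slope of log2 expression on log2 transcript length, a length derived from counts and FPKM, was 0.22 to 0.27 in the first set. It was -0.13 to -0.12 in the second set, against -0.28 to 0.08 in the Y-positive tumors. Of the defining urothelial genes, Upk1a reached at most 2.04 CPM in any library, Upk2 had 0 reads in Y-negative and 4 in Y-positive tumors, and the mesenchymal filament gene Vim held 1349.9 to 6916 CPM across all libraries. The tumors thus carried Krt8 and Krt18 with almost no RNA of these uroplakins. In cultures, uroplakins other than Upk1a were not analysed here.

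Krt8 and Krt18 made up nearly all of the keratin RNA in every library. Per length, in the authors' FPKM, this pair held 94.8% to 99.9% of the summed level of the members. In Y-positive tumors, Krt8 had a mean of 1621 ± 137 FPKM (SD, n = 5), which ranked 78 of 28025 genes, and Krt18 had 1149 ± 246 FPKM, which ranked 109. The order of mean FPKM below them in Y-positive tumors was Krt14 (76.2 ± 18.9), Krt19 (17.2 ± 6.75), Krt6a (6.25 ± 2.41), Krt7 (0.669 ± 0.418), Krt17 (0.213 ± 0.11), Krt5 (0.194 ± 0.217) and Krt15 (0.0787 ± 0.0778). From Krt8 down to Krt6a, the ranges over libraries of neighbours in this order did not overlap except between Krt8 and Krt18, while neighbours among the last 4 overlapped, with at most 41 reads in a library.

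**Figure D1:**
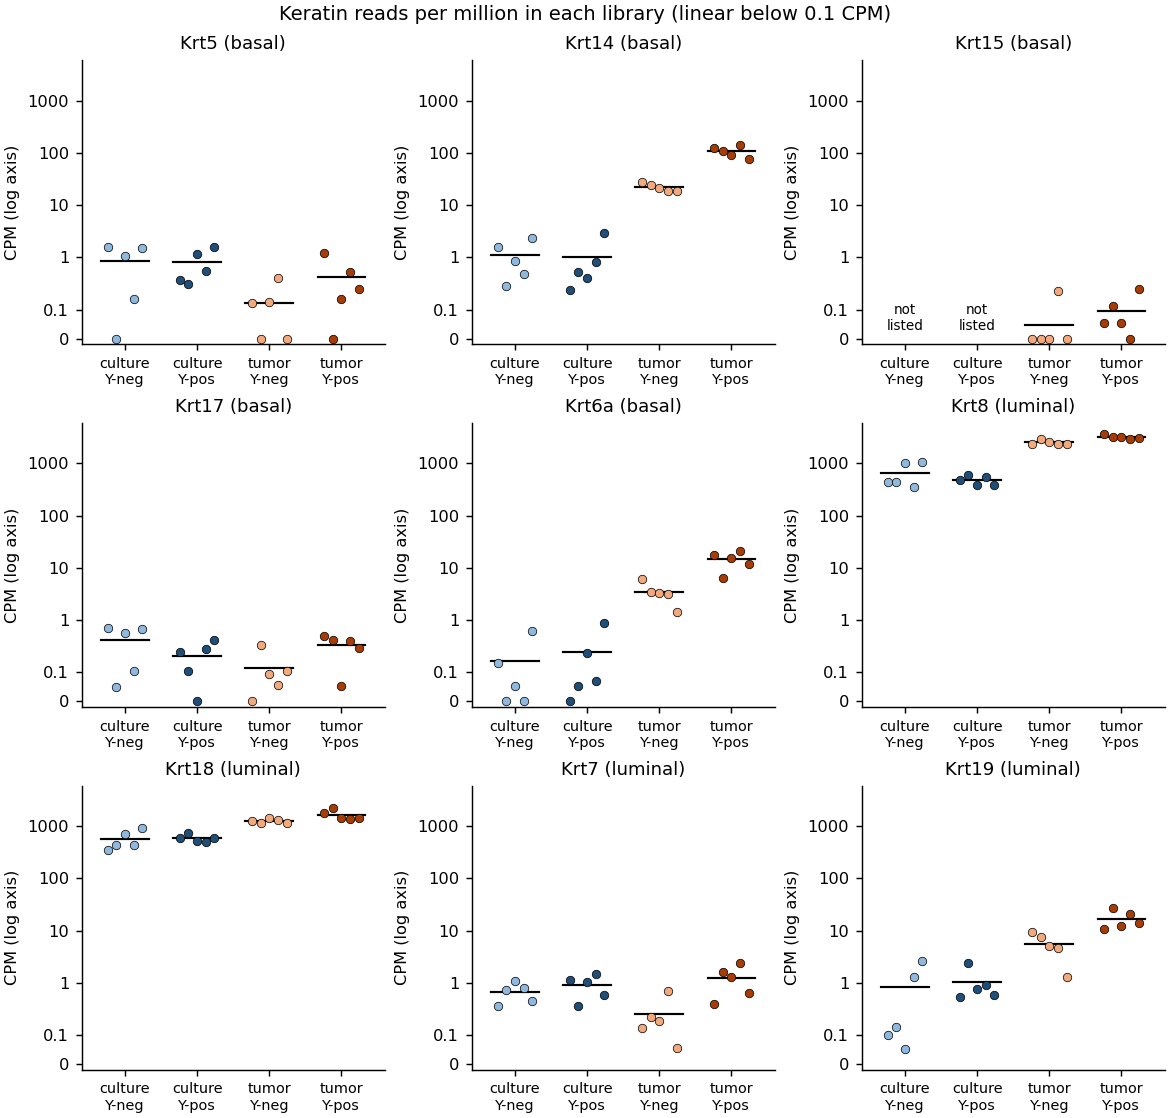
Reads per 1000000 (CPM, log axis that is linear below 0.1) of the 9 listed keratins in each of 20 libraries; points are libraries and lines are group means. Krt14 and Krt6a lie near 1 CPM or below in all but a few cultures, at 18.8 to 27.8 and 1.40 to 6.06 CPM in Y-negative tumors, and higher in Y-positive tumors, while Krt8 and Krt18 are at 343.7 CPM or more in every library.

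In tumors, the basal keratins Krt14 and Krt6a were lower where the cancer cells were Y-negative. Krt14 fell to 20.8% of its Y-positive level and Krt6a to 23.8%. The other 4 members that could be tested (Krt8, Krt18, Krt7 and Krt19) did not pass the threshold, though each had a lower mean. In bulk tumors, fewer cells of a type and less RNA per cell cannot be told apart.

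Krt14, the type I keratin of basal cells, was read at 27.8 CPM in MN11, 24.7 in MN12, 21.7 in MN13, 18.8 in MN14 and 19.0 in MN15 of the Y-negative tumors. The Y-positive tumors gave 121.8 CPM in MP6, 108.9 in MP7, 89.4 in MP8, 142.7 in MP9 and 74.8 in MP10. Every Y-positive tumor was above every Y-negative one, and MN12 and MN15 lay among the other Y-negative tumors. The means were 22.4 ± 3.86 and 107.5 ± 26.6 CPM (SD, n = 5 each), a 4.80-fold difference. The fitted log2 fold change was -2.28 ± 0.20 (SE), with an adjusted p of 8.59e-05 by edgeR's quasi-likelihood test with Benjamini-Hochberg adjustment over all 14783 genes tested, and Krt14 ranked 5 of those genes by p.

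Krt6a, a type II keratin of wounded and hyperproliferative epithelium, had 6.06 CPM in MN11, 3.47 in MN12, 3.26 in MN13, 3.12 in MN14 and 1.40 in MN15. The Y-positive tumors gave 17.3 CPM in MP6, 6.41 in MP7, 15.7 in MP8, 21.2 in MP9 and 12.1 in MP10. The groups did not overlap, although MP7 lay close above MN11. The log2 fold change was -2.10 ± 0.36 (SE; edgeR, adjusted p = 0.0138). The adjusted p was 0.112 without MN11, MN13 and MN14 and 0.0509 in a model over all 20 libraries, with log2 fold changes of -2.52 and -2.16, so the call, unlike that of Krt14, rested on the choice of libraries and fit. Krt6a transcripts share 56.0% of their 75-base stretches with some other gene, and 36.2% with Krt6b. The sources used here do not give how such reads were assigned.

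Of the members tested, 2 of 6 were called lower in Y-negative tumors, where 1% of all 14783 tested genes were called lower. None was called higher, where 1.45% of tested genes were. Krt7, among these 6, entered the test mainly through the Y-positive tumors, where it is high. Krt14, Krt6a and Krt19 had no Y-negative tumor reaching the lowest Y-positive one, a pattern that 3.39% of tested genes showed. These shares are a background only, since the members are few and were named with results of these data known.

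Krt19, a luminal type I keratin without a fixed type II partner, had 9.36 CPM in MN11, 7.67 in MN12, 5.00 in MN13, 4.65 in MN14 and 1.29 in MN15. The Y-positive tumors gave 10.7 CPM in MP6, 26.5 in MP7, 12.5 in MP8, 21 in MP9 and 13.9 in MP10. The lowest library, MN15, held 24 reads and the gap between the groups lay between MN11 and MP6. The log2 fold change of -1.63 ± 0.41 (SE) missed the threshold in edgeR (adjusted p = 0.0555), and it passed with DESeq2, without a count filter, without MN12, MN15 or MP6 alone, and without MN12 and MN15 together (adjusted p = 0.0149). Over 19 alternatives the change ran from -1.87 to -1.40, with adjusted p up to 0.379, each by its own test.

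Krt7, the luminal type II keratin, was scarce: 23 reads in all Y-negative and 112 in all Y-positive tumors, or 0.0538 to 0.681 and 0.385 to 2.34 CPM. The groups overlapped, through MN14 at 0.681 CPM, and the log2 fold change of -2.30 ± 0.66 (SE) did not pass (edgeR, adjusted p = 0.0800). Krt7 passed with DESeq2 and in the model over 20 libraries. Over 18 alternatives its log2 fold change ran from -3.08 to -1.93, with adjusted p up to 0.410, each by its own test. In tumors Krt7 reached the count filter mainly through the Y-positive libraries, where it is high, so its change is a description.

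Krt8, the type II keratin of simple epithelium, had 2387 CPM in MN11, 2956 in MN12, 2529 in MN13, 2407 in MN14 and 2369 in MN15. The Y-positive tumors gave 3615 CPM in MP6, 3144 in MP7, 3159 in MP8, 2896 in MP9 and 3051 in MP10. Only MN12 reached into the Y-positive range. The log2 fold change was -0.33 ± 0.14 (SE; edgeR, adjusted p = 0.175), and without MN12 and MN15 it was -0.46 (adjusted p = 0.0262). Over 19 alternatives the change ran from -0.46 to -0.19, with adjusted p up to 0.771, each by its own test. Krt8 shares 22% of its 75-base stretches with its pseudogene Krt8-ps, which held 594 and 694 reads in the Y-negative and Y-positive tumors, against 228331 and 291147 for Krt8.

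Krt18, its type I partner, had 1258 CPM in MN11, 1144 in MN12, 1432 in MN13, 1317 in MN14 and 1148 in MN15. The Y-positive tumors gave 1799.6 CPM in MP6, 2209.5 in MP7, 1422 in MP8, 1398 in MP9 and 1425 in MP10. The groups overlapped at MN13, and the log2 fold change of -0.40 ± 0.15 (SE) did not pass (edgeR, adjusted p = 0.151). The Krt8 to Krt18 ratio in FPKM was 1.49 ± 0.24 in Y-negative and 1.45 ± 0.23 in Y-positive tumors (SD, n = 5 each).

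The basal partner of Krt14 did not accompany it in quantity. Krt5 had 12 reads in all 5 Y-negative tumors together and 39 in the Y-positive tumors, where Krt14 had 1999 and 9755. By library, Krt5 ran from 0 to 0.397 CPM in Y-negative and from 0 to 1.21 CPM in Y-positive tumors. Krt17, another type I keratin of activated epithelium, had 11 and 30 reads, and Krt15, a type I keratin of basal and hair bulge cells, had 4 and 9. These 3 were below the count filter and could not be tested in tumors at this depth.

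As a share of type I keratin FPKM, Krt14 took 1.43% to 2.18% in Y-negative and 4.70% to 9.23% in Y-positive tumors. The basal members as a whole took 0.698% to 1.05% and 2.24% to 4.29% of member FPKM. The second pair of ranges follows the first, since Krt14 supplied most of the basal FPKM. Beside 1000 FPKM of Krt18, there were 14.6 to 22.5 FPKM of Krt14 in Y-negative and 50.2 to 104.0 in Y-positive tumors, so the groups were also apart on a scale set by another keratin of the same libraries.

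**Figure D2:**
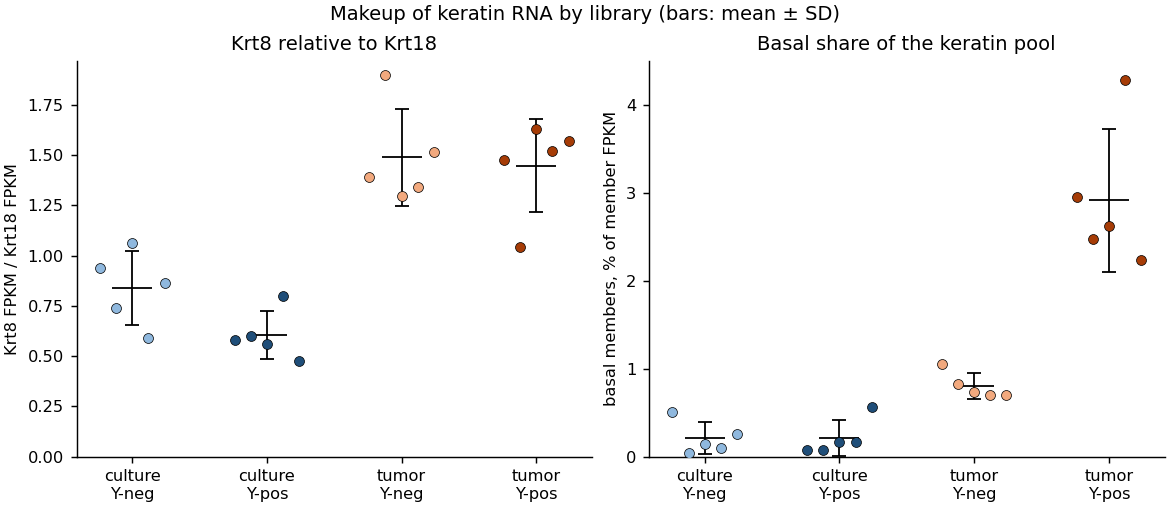
Left, Krt8 FPKM divided by Krt18 FPKM; right, basal members as a percentage of member FPKM, by library (points) with mean ± SD. The mean ratio is 1.49 and 1.45 in the tumor groups, and the ratio is below 1 in all cultures but BN6, and the basal share is 2.24% to 4.29% in Y-positive tumors against at most 1.05% in any other library.

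In cultures no member passed the test by Y status. The edgeR test called 0 of the 6 members that could be tested, against 0.0321% of all 12446 genes tested (4 genes), and 0 members had an unadjusted p under 0.05. DESeq2 and limma-voom also called 0. Krt17 and Krt6a were below the count filter.

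Krt14 in culture ran from 0.288 to 2.39 CPM in Y-negative and from 0.24 to 2.96 CPM in Y-positive libraries, with a log2 fold change of 0.08 ± 0.71 (SE; edgeR, adjusted p = 0.965). The 3 cultures highest in Krt14, MB34 at 2.96 CPM, BN10 at 2.39 and BN2 at 1.57, were also the 3 highest in Krt5, at 1.6, 1.5 and 1.57 CPM, and they include both Y groups. MB34 and BN10 were likewise highest in Krt6a, at 0.889 and 0.612 CPM, from 15 and 11 reads. Krt5 itself had a log2 fold change of 0.01 ± 0.80 (SE), with 81 reads over the Y-negative and 67 over the Y-positive cultures.

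Krt8 in culture had 439.6 CPM in BN2, 444.7 in BN3, 1021 in BN6, 352 in BN9 and 1072 in BN10. The Y-positive cultures gave 473 CPM in MB8, 589.6 in MB11, 389.8 in MB17, 543 in MB19 and 388 in MB34. BN6 and BN10 stood above all others and the remaining Y-negative cultures lay within or just below the Y-positive range. The log2 fold change was 0.42 ± 0.29 (SE; edgeR, adjusted p = 0.469). Krt18 had means of 568 ± 234 and 586 ± 90.5 CPM (SD, n = 5 each) with a log2 fold change of -0.10 ± 0.23. Krt7 and Krt19 had log2 fold changes of -0.48 ± 0.46 and -0.38 ± 0.84 from at most 21 and 46 reads in a library.

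**Figure D3:**
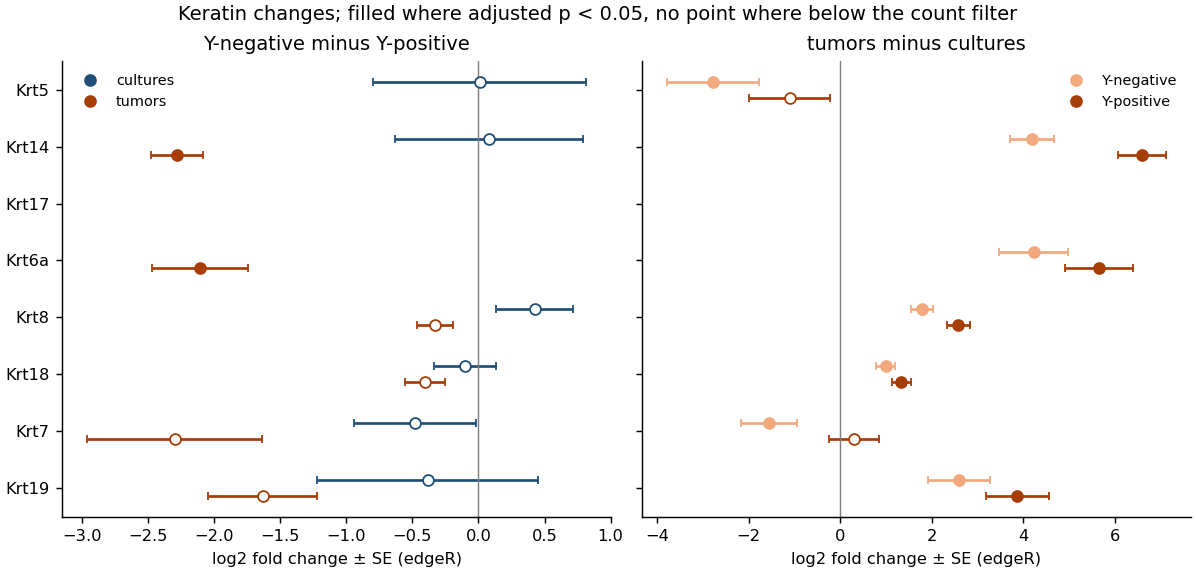
Fitted log2 fold changes (± SE) of members by Y status (left: cultures and tumors) and from culture to tumor (right: Y-negative and Y-positive); filled points have an adjusted p under 0.05. On the left only Krt14 and Krt6a in tumors are filled, at -2.28 and -2.10. On the right Krt14, Krt6a, Krt8, Krt18 and Krt19 are filled and above 0 in both genotypes. Krt5 (-2.78) and Krt7 (-1.56) are filled and below 0 in Y-negative material only. The values of Krt5, Krt6a and Krt7 on the right are a description.

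Whether the Y-related change itself differed between tumors and cultures was tested as a contrast of the 4 group means with the 20 libraries fitted together. Of the 7 members tested, 1 was called, where 4.56% of 13740 genes were. Krt14 had a difference of changes of -2.40 ± 0.66 (SE, log2; edgeR, adjusted p = 0.0428). The call was lost when any of 13 of the 20 libraries was left out (BN2, BN6, BN10, MB8, MB11, MB17, MB19, MN11, MN13, MN14, MP7, MP8 or MP9), with limma-voom, and without MN11, MN13 and MN14 together (adjusted p = 0.234). Its value ran from -3.43 without MB34 to -1.99 without BN10 when 1 library was left out. For Krt6a the difference was -1.43 ± 1.13 (adjusted p = 0.482), for Krt8 -0.80 ± 0.33 (0.158), for Krt7 -1.87 ± 0.82 (0.176), for Krt19 -1.27 ± 0.92 (0.433), for Krt18 -0.34 ± 0.29 (0.511) and for Krt5 -1.68 ± 1.33 (0.484).

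Krt14, Krt8, Krt18 and Krt19 were higher in tumors than in cultures in both genotypes, and of these Krt14 had the largest fold change. In Y-positive material Krt14 rose from 0.991 ± 1.12 to 107.5 ± 26.6 CPM, a log2 fold change of 6.59 ± 0.52 (SE; edgeR, adjusted p = 5.92e-10). In Y-negative material it rose from 1.11 ± 0.870 to 22.4 ± 3.86 CPM, a log2 fold change of 4.19 ± 0.48 (adjusted p = 2.14e-07). Krt6a had 21 and 15 reads in all Y-positive and all Y-negative cultures, against 1335 and 302 in the tumors. It passed the count filter only through the tumors, where it is high, so its fitted log2 fold changes of 5.66 ± 0.74 and 4.23 ± 0.75 are given as a description.

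Krt8 rose by 2.58 ± 0.25 (Y-positive) and 1.78 ± 0.24 (Y-negative) on the log2 scale, and Krt18 rose by 1.34 ± 0.21 and 0.995 ± 0.204, all with adjusted p of 0.000293 or less in edgeR. Krt19 rose by 3.87 ± 0.68 and 2.60 ± 0.67 (adjusted p = 4.24e-05 and 0.00235). Because Krt8 moved further than Krt18, the Krt8 to Krt18 ratio in FPKM went from 0.839 ± 0.182 to 1.49 ± 0.24 in Y-negative and from 0.603 ± 0.120 to 1.45 ± 0.23 in Y-positive material, and within each genotype no tumor overlapped a culture.

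Krt7 went the other way in Y-negative material, where it fell by 1.56 ± 0.61 on the log2 scale (SE; edgeR, adjusted p = 0.0343), and leaving out BN3, BN6, BN9, MN11, MN12, MN13 or MN15 ended that call. Krt7 had 66 reads in all Y-negative cultures and 23 in the Y-negative tumors, and it was in the fit through groups other than those tumors. Its fall is therefore a description. In Y-positive material its log2 fold change was 0.31 ± 0.55 (edgeR, adjusted p = 0.640). Krt5 had 81 reads in all Y-negative cultures and 12 in the tumors, and 67 and 39 in the Y-positive material. It passed the count filter only through the cultures, where it is high, so its fitted log2 fold changes of -2.78 ± 1.0 and -1.11 ± 0.89 are a description too.

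Of the 5 members that passed the count filter in cultures and in tumors, 4 rose from culture to tumor in Y-negative material, against 28.1% of 13740 genes. The 1 that fell, against 27.9% of genes, was Krt7, and its fall is a description, as given above. In Y-positive material 4 rose and 0 fell, where 31.7% and 30.1% of genes did. Tumor libraries also hold RNA of host cells, and that RNA cannot be told apart from that of the cancer cells in this design. Over genes that the culture and the tumor tables share, 4 fibroblast genes summed to 14.5 to 49.1 CPM in cultures and to 302 to 1789 CPM in tumors, and 4 macrophage genes to 51.2 to 306.9 CPM and to 932 to 1869 CPM, and their part in the keratin values was not tested.

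Skin was the host tissue next to these tumors whose cells make Krt14 and Krt5, so its markers are given beside the Krt14 result. Of 14 genes of the interfollicular epidermis, 7 were listed in tumors, and they summed to 4.79 to 8.89 CPM in Y-negative and 7.07 to 15.5 CPM in Y-positive tumors. The type I keratin of differentiating epidermis, Krt10, had 18 and 41 reads. Of 12 hair follicle genes 6 were listed, summing to 0 to 2.26 CPM and 0.799 to 1.72 CPM, with Krt25, Krt28 and Krt31 at 0 in all Y-negative tumors. The 1 hair follicle gene tested, Krt27, had 0.738 ± 0.823 and 0.634 ± 0.33 CPM (edgeR, adjusted p = 0.875). In the epidermal list 1 of 2 tested genes was called lower in Y-negative tumors, against 1% of all tested genes. That gene, the dermokine gene Dmkn, had 0.632 ± 0.688 against 3.92 ± 1.87 CPM (log2 fold change -2.70 ± 0.62, edgeR adjusted p = 0.0420). Dmkn passed the count filter through the Y-positive tumors, where it is high, so its change is a description. The other tested epidermal gene, Sbsn, had 5.65 ± 1.67 and 5.57 ± 1.63 CPM (log2 fold change 0.003 ± 0.283, adjusted p = 0.996). Dmkn moved with Krt14 at a level far below it, Krt5 was nearly absent, and the part of skin RNA in the Krt14 result was not tested.

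Of 10 squamous differentiation genes, 6 could be tested in tumors and 1 was called lower in Y-negative tumors, against 1% of all tested genes. That gene, the serpin gene Serpinb5 (maspin), had 2.72 ± 1.3 CPM in Y-negative and 13.2 ± 7.44 in Y-positive tumors (log2 fold change -2.29 ± 0.44, edgeR adjusted p = 0.0210). The median log2 change of the 6 was -0.30, against -0.01 over all genes tested. Sprr1a, a cornified envelope gene, had 14.7 ± 2.17 and 19.9 ± 9.87 CPM and was not called.

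Of 12 basal genes 7 were tested in tumors and 2 were called lower, the members Krt14 and Krt6a, against 1% of all tested genes. The other genes of that list did not pass the test. Cd44, a hyaluronan receptor, had a log2 fold change of -0.35 ± 0.13 (edgeR, adjusted p = 0.136), Itgb4, a hemidesmosome integrin, had 0.55 ± 0.24 (0.198) and Trp63, the basal master regulator, had 0.72 ± 0.44 (0.344) at 3.22 ± 1.86 and 1.91 ± 1.05 CPM. Of 15 luminal genes 10 were tested and 1 was called higher in Y-negative tumors, against 1.45% of all tested genes. That gene, the luminal transcription factor gene Gata3, had 7.49 ± 1.76 against 3.38 ± 0.870 CPM (log2 fold change 1.13 ± 0.24, edgeR adjusted p = 0.0328). Gata3 was also the 1 of 9 tested epithelial transcription factors to be called. The median log2 changes of the 3 lists were -0.23, -0.37 and 0.36, against -0.01 over all genes tested. The basal and luminal lists hold the keratin members themselves, with Krt7, Krt8, Krt18 and Krt19 among the luminal genes tested. Their medians are therefore not separate from the member values.

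Some genes that anchor keratin filaments were higher in Y-negative tumors. Of 19 desmosome, hemidesmosome and linker genes 12 were tested and 4 were called higher, where 1.45% of all tested genes were: the plakin genes Evpl (log2 fold change 1.53 ± 0.27), Ppl (1.24 ± 0.26), Dst (1.2 ± 0.27) and Plec (1.04 ± 0.25), with edgeR adjusted p from 0.0139 to 0.0480. The list's median was 0.25. Its summed level was 3122, 2472 and 3051 CPM in MN11, MN13 and MN14, against 1425 and 1525 in MN12 and MN15 and 997.5 to 1899.7 in the Y-positive tumors, so the sums above the Y-positive range were those of the 3 libraries with the steep length slopes. Taken gene by gene, Evpl was higher in every Y-negative tumor, MN12 and MN15 included, than in any Y-positive tumor. The groups overlapped for Ppl, Dst and Plec. Plakins are long genes, and the part of the length slope in the 4 calls was not tested.

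The other keratins were few. Of 21 other type II keratins 11 were listed and 1 could be tested in tumors, Krt80, at 9.52 ± 1.54 and 13.2 ± 1.64 CPM (log2 fold change -0.49, edgeR adjusted p = 0.111). Of 23 other type I keratins 15 were listed and 3 were tested, with none called. Krt16, which shares 75-base stretches with 5.9% of Krt14, had 2.15 ± 1.07 and 2.87 ± 1.39 CPM (adjusted p = 0.609), and Krt20, an umbrella cell keratin, 0.373 ± 0.272 and 0.609 ± 0.356 CPM (0.599). Of 10 other intermediate filament genes 8 were tested and 1 was called higher in Y-negative tumors, against 1.45% of all tested genes. That gene, the neuronal filament gene Prph, had 6.42 ± 1.56 against 0.362 ± 0.255 CPM (log2 fold change 4.13 ± 0.44, edgeR adjusted p = 0.000486). Prph passed the count filter through the Y-negative tumors, where it is high, so its change is a description. Vim, the filament gene of mesenchymal cells, had a log2 fold change of -0.09 ± 0.17.

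Among 9 epithelial junction genes 4 were tested and none was called. Cdh1, the E-cadherin gene, had 2.27 ± 1.0 and 5.61 ± 2.09 CPM, with no overlap of the groups and a log2 fold change of -1.32 ± 0.34 (edgeR, adjusted p = 0.0571). In cultures Cdh1 ran from 0.0601 to 0.584 CPM.

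Host cell lists moved as follows beside these keratins. Of 9 fibroblast genes 3 were called lower in Y-negative tumors (Lum, Pi16 and Col3a1, log2 fold changes -2.07, -2.16 and -1.32) and 1 higher (Dcn, 1.07), where 1% and 1.45% of all tested genes were, with sums of 699.7 to 1695 CPM in Y-negative and 1127 to 2057 CPM in Y-positive tumors. None was called of 8 T cell genes (sums of 32.5 to 67.3 and 37.3 to 88.5 CPM), 8 macrophage genes (1335 to 2496 and 1561 to 2704 CPM), 5 endothelial genes (48.1 to 99.0 and 56.1 to 83.1 CPM), 5 skeletal muscle genes (7.07 to 544.5 and 2.86 to 2099.6 CPM) or the 1 mesothelial gene tested, Msln (273 ± 15.1 and 282 ± 18.3 CPM). Msln was also at 83.6 to 435.4 CPM in cultures, which hold no host cells. The macrophage list genes Cd68 (means of 85.4 and 84.0 CPM in Y-negative and Y-positive cultures) and Mrc1 (79.7 and 87.8) were read there too. So was the fibroblast list gene Pdgfra, with means of 22.2 and 13.7 CPM in Y-negative and Y-positive cultures. Msln, Cd68, Mrc1 and Pdgfra are therefore not markers of host cells alone. All 4 Y-linked genes were lower. The part of these cells in the keratin values was not tested.

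The genes whose levels followed a keratin most closely within the tumor groups were named by the highest Pearson r over 10 tumor libraries after removing group means, among 10883 genes of at least 5 CPM. For Krt14 these were Dus2 (r = 0.865), Gzmg (0.849) and Pacsin3 (0.833), for Krt6a Vezt (0.975), B3gntl1 (0.935) and Tnip2 (0.930), and for Krt8 Pim3 (0.935), Nfkbia (0.880) and Abtb1 (0.875). With so many genes over 10 libraries, high values of r are the top of a long list, and they are given as a description. Of the 9, 1 was itself called in tumors, the granzyme gene Gzmg, at 3.13 CPM in Y-negative and 11.2 CPM in Y-positive tumors (edgeR, adjusted p = 0.0291).

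**Figure D4:**
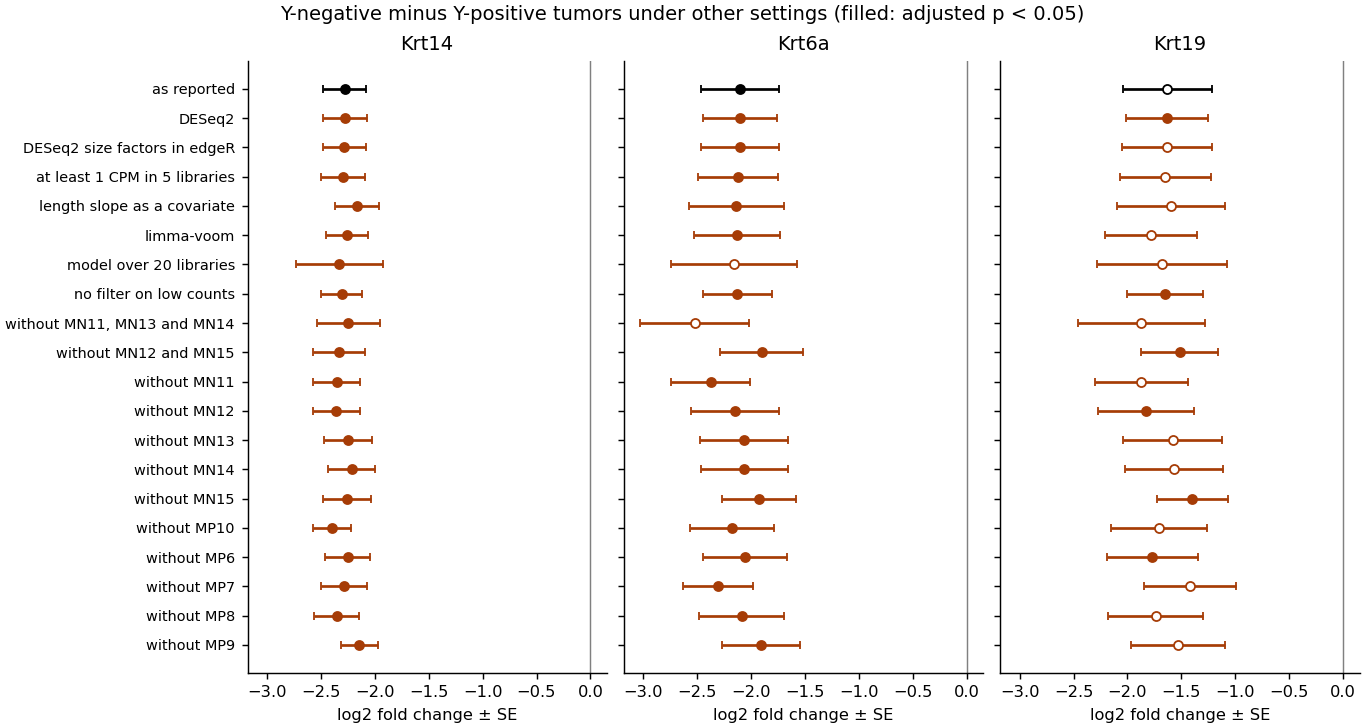
Log2 fold change (± SE) of Krt14, Krt6a and Krt19 between Y-negative and Y-positive tumors as reported (black) and under 19 other settings; filled points have an adjusted p under 0.05. Krt14 stays between -2.40 and -2.14 with every point filled, Krt6a is open in 2 settings and Krt19 is filled in 6.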

How the data were processed

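RNA-seq was made from total RNA with a SMARTer mRNA kit, per the labels' protocols. Tools named in the submitters' processing notes are STAR 2.7.0d, RSEM 1.3.1, cutadapt 2.3, MultiQC 1.8 and FastQC 0.11.5, with the build mm10. The sources used here do not give their roles, the annotation or the strand setting. Per the file headers, each deposited table holds integer read counts by gene, and these counts were tested. The authors' deposited FPKM, per the file headers, were used to compare levels between genes. A normalized column was not used, and in 1 table it carries the name of another library. CPM are counts per 1000000 reads of a library's total over listed genes.

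Members were matched by symbol or gene ID, with 25 names altered by a spreadsheet restored through the ID. Tests used edgeR 4.0.16 (TMM, filterByExpr with a minimum count of 10 and a minimum total of 15, quasi-likelihood F-test) in R 4.3.3, with Benjamini-Hochberg adjustment over all genes tested and calls at an adjusted p under 0.05. Cultures and tumors were fitted apart, and contrasts across them came from 1 fit of the 4 group means over 14650 genes listed in both kinds of table. The procedure was tested on simulated data.

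All members are named in every comparison. Of 18 gene lists, the genes called in tumors or up to 3 with the smallest p were eligible to be named, and the closest followers of Krt14, Krt6a and Krt8 were taken by Pearson r (prior count 2). Members and lists were chosen with earlier results of these data known. Alternatives covered normalization, filters, DESeq2 1.42.0, limma 3.58.1 (voom), left-out libraries, the model over 20 libraries and a length covariate. Shared stretches of 75 bases came from GENCODE M21 transcripts.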

Additional observations from a re-analysis of the deposited data

Results flagged for a closer look

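Among 34 groups of 5 libraries, 7 held a library flagged by Dixon's rule. The gap to the nearest other library, divided by the group's range, exceeded the 95% critical value for 5 (0.71). For normally distributed values chance gives about 1 in 20 groups, a rate that low read counts need not follow. In cultures the flagged values were Krt14 in MB34 (2.96 CPM, 50 reads), Krt6a in MB34 (0.889 CPM, 15 reads), Krt6a in BN10 (0.612 CPM, 11 reads) and Krt19 in MB11 (2.39 CPM, 46 reads), each above its group. In Y-negative tumors they were Krt8 in MN12 (2956 CPM, 52810 reads), Krt7 in MN14 (0.681 CPM, 12 reads) and Krt15 in MN14 (0.227 CPM, 4 reads), again above their groups. Of the 7, 6 rest on 50 reads or fewer.

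The Y-related change of Krt14 in tumors differed from that in cultures by -2.40 on the log2 scale in the test of the difference itself (edgeR, adjusted p = 0.0428). That call depends on single libraries, as the values above show.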

How the results depend on the processing

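The Krt14 difference between tumors held its direction and its call in all 19 alternatives run (adjusted p up to 0.0122), and the culture comparison called 0 members in all 17. In tumors, 2 members were called as reported, 4 with DESeq2, 4 without MN12 and MN15, 1 without MN11, MN13 and MN14, and 2 to 3 with 1 library left out. For the difference of changes, 1 was called as reported and 0 with limma-voom, 0 without MN11, MN13 and MN14 (an alternative added after the data were seen), and 0 to 1 with 1 library left out. From culture to tumor, 5 to 7 of the Y-negative and 5 of the Y-positive contrast were called under every alternative run, with Krt5 and Krt6a in the fit through 1 kind of material only. No called member reversed. Over all genes, the calls between tumors went from 362 to 80 without MN11, 80 without MP8, 84 without MN14, 151 without MP9, 169 without MP10, 171 without MN13, 796 without MN12, 21 without MN11, MN13 and MN14, 3630 without MN12 and MN15 and 1143 with DESeq2, and between cultures from 4 to 499 with DESeq2 and 457 in the model over 20 libraries, and to between 2 and 66 with 1 library left out. For the difference of changes they went from 627 to 6 without MN11, MN13 and MN14, 1962 without MN12 and MN15 and 1268 with DESeq2, and to between 171 and 1043 with 1 library left out. The causes were not tested. Summing Krt6a with Krt6b was not run, since Krt6b was not analysed here. No paired analysis was possible because the groups compared share fewer than 2 replicate numbers. Depth limits Krt5, Krt7, Krt15 and Krt17, which had at most 41 reads in a library.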
